A study of Mus musculus with 12 samples.

Results

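Brown and beige adipocytes burn fuel to make heat, and 7 genes that mark this programme were followed here in the white fat of mice on a high-fat diet: Ucp1, Ppargc1a, Prdm16, Dio2, Cidea, Elovl3 and Kcnk3. They were chosen by name, as genes with a known place in thermogenic fat, and their Ensembl identifiers were matched to symbols; all 7 were among the 32622 genes measured in every library. The libraries came from 6 mice, each of which gave epididymal fat (epWAT) and subcutaneous fat (scWAT). Of these mice, C75, C85 and C99 were wild type (WT), and C7, C34 and C695 were C2orf74 knockouts (KO). All 4 groups, WT epWAT, KO epWAT, WT scWAT and KO scWAT, thus held 3 libraries and shared the same diet, which per the labels was started at 8 weeks of age and continued for 12 weeks. No group on a control diet, at thermoneutrality or in the cold was part of the comparisons, and brown fat itself was not analysed here. How the knockout allele was made, the strain background and the housing temperature are not given in the sources used here.

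Heat production in brown and beige fat rests on the mitochondria. Noradrenaline from sympathetic nerves acts on beta-adrenergic receptors of the adipocyte, lipid droplets release fatty acids, and uncoupling protein 1 lets protons return across the inner membrane without making ATP. Coregulators of transcription set up this state, and locally made thyroid hormone reinforces it. In mice the subcutaneous pad is known as the white depot in which beige adipocytes appear most readily, and the epididymal pad as one in which they are rare.

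Expression was deposited as FPKM, a value scaled to gene length and sequencing depth, so levels of different genes can be set side by side per length. From these values whole reads were recovered, with depths of 15011093 to 18311564 per library. The mouse counterpart of C2orf74, 1700093K21Rik, was near the detection limit in all groups, with 1 read over the KO epWAT libraries, 7 over WT epWAT, 2 over KO scWAT and 20 over WT scWAT. Fat identity was clear in all 12 libraries, as 10 of 10 mature adipocyte markers, among them Adipoq, Plin1 and Fabp4, were detected in each and summed to between 6712 and 12481 FPKM. Some KO libraries had high sums of markers of other tissues or cell types. KO epWAT C7 had 372 FPKM and KO epWAT C695 8.25 FPKM summed over 8 epididymis and germ cell markers, against at most 0.686 FPKM in any WT epWAT library. KO scWAT C695 had 219 FPKM over 10 lymphocyte markers, against at most 14.5 FPKM in any WT scWAT library. The source of the lymphocyte RNA was not tested. Skeletal muscle markers were present in all groups, from 7.91 FPKM in WT epWAT C99 to 276 FPKM in KO scWAT C34. The RNA came from bulk tissue, so fewer cells of a type and less RNA per cell cannot be told apart in any difference given here. The mice are separate animals, and p-values measure the spread among 3 of them per group.

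Promoter sequence is shown for the coregulator genes Ppargc1a and Prdm16, whose levels were higher in scWAT in all 6 mice, and for Ucp1 and Dio2, which stayed below 1 FPKM in every library. RefSeq sequences (GRCm38.p6) were found for these 4 of the 7 genes, and Cidea, Elovl3 and Kcnk3 were not matched. Each line gives the 250 bases before the RefSeq start, 5′ to 3′ on the gene's own strand, which is minus for Ppargc1a (chr5:51567726-51567975), Prdm16 (chr4:154636874-154637123) and Dio2 (chr12:90739039-90739288) and plus for Ucp1 (chr8:83290098-83290347). Capitals mark matches on either strand to TGACGT, the core of a cyclic AMP response element, to its full form TGACGTCA, which contains that core on both strands, and to AGGTCA, the element bound by many nuclear receptors.
Ppargc1a: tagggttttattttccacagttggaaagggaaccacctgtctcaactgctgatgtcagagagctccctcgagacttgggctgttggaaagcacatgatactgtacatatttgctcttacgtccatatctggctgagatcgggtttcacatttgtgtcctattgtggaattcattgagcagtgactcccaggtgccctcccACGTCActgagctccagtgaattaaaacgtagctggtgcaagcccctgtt
Prdm16: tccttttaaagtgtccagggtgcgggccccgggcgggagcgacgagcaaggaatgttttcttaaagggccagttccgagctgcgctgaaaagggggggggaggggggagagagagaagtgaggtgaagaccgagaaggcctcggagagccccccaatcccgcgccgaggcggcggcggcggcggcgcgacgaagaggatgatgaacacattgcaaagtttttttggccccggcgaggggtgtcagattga
Dio2: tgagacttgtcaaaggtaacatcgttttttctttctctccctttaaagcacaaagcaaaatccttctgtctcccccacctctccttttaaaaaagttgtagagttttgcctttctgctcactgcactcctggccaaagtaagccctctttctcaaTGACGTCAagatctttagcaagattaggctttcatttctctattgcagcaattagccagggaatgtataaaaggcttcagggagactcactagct
Ucp1: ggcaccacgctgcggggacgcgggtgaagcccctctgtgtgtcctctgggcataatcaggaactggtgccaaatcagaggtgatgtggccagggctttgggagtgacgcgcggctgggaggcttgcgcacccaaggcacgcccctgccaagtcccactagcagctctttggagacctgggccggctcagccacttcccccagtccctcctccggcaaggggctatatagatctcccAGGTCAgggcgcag
The Ppargc1a stretch held TGACGT on the opposite strand, in the 6 bases from position -50, counted so that -1 is the last base before the start. Dio2 held the full TGACGTCA from position -95, and Ucp1 held AGGTCA from position -14. Of 32851 mouse promoters cut to the same 250 bases, 6.5% held TGACGT, 1.5% held TGACGTCA and 14% held AGGTCA on either strand. No match to these 3 motifs was found in the Prdm16 stretch. A match is a run of letters in this window and was not tested as a binding site.

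Ucp1, whose product is the uncoupling protein itself, was nearly undetected in these pads. In GRCm38 (GENCODE M21) the gene (ENSMUSG00000031710) is protein-coding and lies on the plus strand of chromosome 8 from 83290352 to 83298452. Over all 12 libraries only 22 reads fell on it. WT epWAT had 0.103, 0 and 0 FPKM in C75, C85 and C99, and KO epWAT had 0.0739, 0.0353 and 0 FPKM in C7, C34 and C695. WT scWAT had 0.0755, 0.134 and 0.137 FPKM in the same order of mice, and KO scWAT had 0.0363, 0.180 and 0 FPKM. The highest value, in KO scWAT C34, rested on 5 reads. KO and WT overlapped in both depots, and so did the depots within each genotype. In the 4 libraries with 0 reads, a count of 3 reads, the upper limit that 0 allows, would equal 0.122 FPKM or less. Summed over mice, the KO to WT ratio per read sequenced was 1.10 in epWAT (exact 95% interval 0.147 to 8.18, 3 reads against 3) and 0.611 in scWAT (0.183 to 1.86, 6 against 10). The scWAT to epWAT ratio in WT was 3.41 (0.879 to 19.3, 10 reads against 3). These intervals cover counting error only, and no difference in Ucp1 was detectable at this depth. In the same libraries its family members were readily measured, Ucp2 at 24.7 to 127 FPKM and Ucp3 at 8.89 to 21.6 FPKM.

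A level of 1 FPKM was used as the mark between low and measurable expression, and the 7 genes split around it. Ucp1 and Dio2 were below it in 12 of 12 libraries, Elovl3 in 9, Ppargc1a in 7 and Prdm16 in 5, whereas Cidea and Kcnk3 were never below it. Of 84 values in all, 45 were below 1 FPKM. By group the counts were 14 of 21 in KO epWAT, 13 of 21 in WT epWAT and 9 of 21 in each of KO scWAT and WT scWAT. For comparison, 52.4% of all 32622 genes were below 1 FPKM in all 12 libraries. By mean level over the 12 libraries the order was Kcnk3 (11.0 FPKM), Cidea (7.69), Prdm16 (1.56), Ppargc1a (0.947), Elovl3 (0.679), Dio2 (0.367) and Ucp1 (0.0646).

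**Figure D1:**
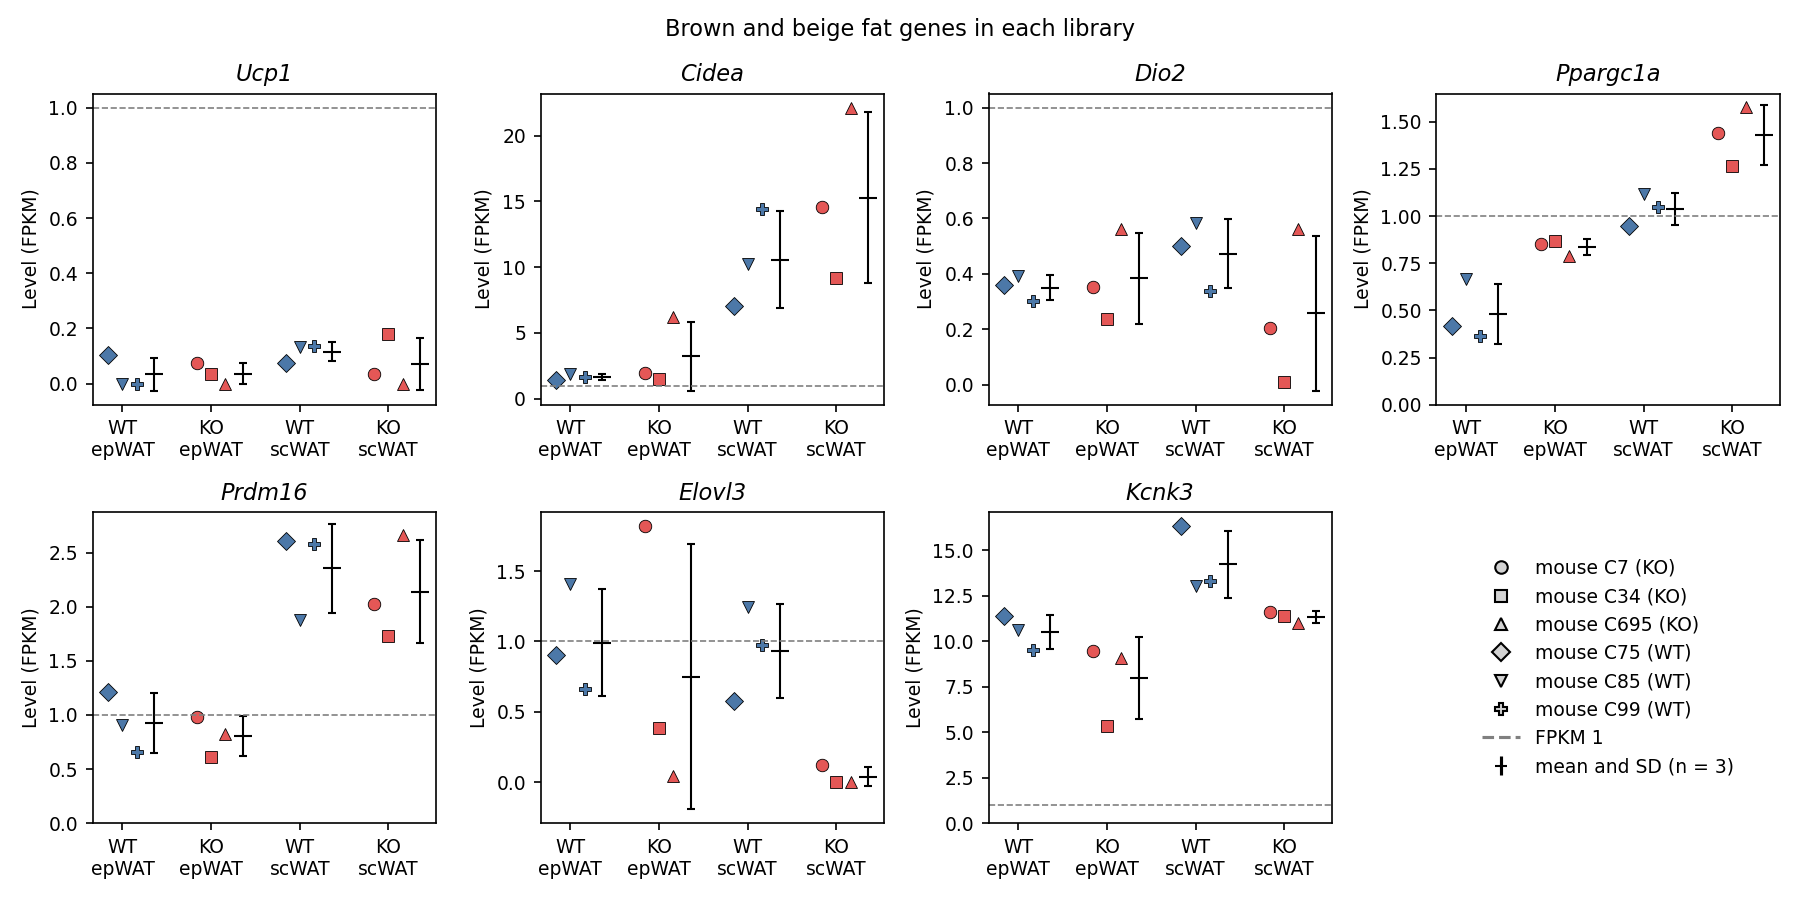
Level of each of the 7 genes in FPKM (linear y axes, a range of its own in each panel) by group, 1 symbol per mouse, with the mean and SD of 3 mice beside the symbols and a dashed line at 1 FPKM. Ucp1 and Dio2 lie under the line in all 12 libraries, Cidea and Kcnk3 lie over it in all 12, and KO scWAT Elovl3 is at 0.119 FPKM or less.

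Ppargc1a encodes PGC-1alpha, a transcriptional coactivator that drives mitochondrial biogenesis and is induced by cold through adrenergic signalling. The gene (ENSMUSG00000029167) lies on the minus strand of chromosome 5 from 51454250 to 51567726 (GRCm38). In epWAT the WT mice C75, C85 and C99 had 0.419, 0.665 and 0.365 FPKM and the KO mice C7, C34 and C695 had 0.852, 0.868 and 0.788 FPKM. In scWAT the WT values were 0.946, 1.12 and 1.05 FPKM and the KO values 1.44, 1.27 and 1.58 FPKM, in the same order of mice. Every KO library was therefore above every WT library of its depot. The 4 group means ran in the order WT epWAT (0.483 ± 0.159 FPKM; SD, n = 3), KO epWAT (0.836 ± 0.0424), WT scWAT (1.04 ± 0.0866) and KO scWAT (1.43 ± 0.158), with no overlap between neighbours. With 3 mice against 3 a two-sided exact permutation test cannot give less than p = 0.1, and it gave p = 0.1 in each depot. Among the 25338 genes with a value above 0 in at least 3 libraries, 7.84% were higher in KO without overlap in epWAT, 8.84% in scWAT and 1.1% in both depots.

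Across all genes the difference in Ppargc1a between KO and WT did not pass the test. In scWAT the log2(FPKM + 1) difference was 0.25 ± 0.11 (SE; 95% interval -0.00 to 0.51; limma Benjamini-Hochberg adjusted p = 0.300). In epWAT the gene was below the filter of at least 1 FPKM in 3 libraries of the comparison, and without the filter the difference was 0.31 with an adjusted p of 0.266. On recovered reads (limma-voom), where low genes are not compressed by the added 1, the log2 difference was 0.84 ± 0.25 in epWAT (adjusted p = 0.117) and 0.46 ± 0.16 in scWAT (adjusted p = 0.301). Summed reads were 270 in KO against 170 in WT epWAT, and 484 against 359 in scWAT. Summed skeletal muscle markers, whose tissue also expresses Ppargc1a, were 36.3 to 59.2 FPKM in KO epWAT against 7.91 to 27.1 in WT epWAT, and overlapped in scWAT at 10.3 to 276 against 30.4 to 149 FPKM. None of the 8 muscle markers was free of overlap between KO and WT in either depot, and Tnnc2 was at 0 in KO epWAT, KO scWAT and WT scWAT; their part in the Ppargc1a values was not tested.

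Prdm16 encodes a zinc-finger coregulator that holds adipocytes in the brown and beige state, and it is known in mice as more abundant in subcutaneous than in epididymal fat. The gene (ENSMUSG00000039410) lies on the minus strand of chromosome 4 from 154316125 to 154636873 (GRCm38). WT epWAT had 1.21, 0.910 and 0.658 FPKM in C75, C85 and C99, and KO epWAT had 0.985, 0.608 and 0.822 FPKM in C7, C34 and C695. WT scWAT had 2.61, 1.88 and 2.57 FPKM and KO scWAT 2.03, 1.73 and 2.67 FPKM. All 6 scWAT values lay above all 6 epWAT values, whereas KO and WT overlapped in both depots. Means were 0.805 ± 0.189 in KO and 0.926 ± 0.277 in WT epWAT, and 2.14 ± 0.479 in KO and 2.36 ± 0.411 in WT scWAT (FPKM; SD, n = 3; two-sided exact permutation p = 0.6 and p = 0.7 for genotype). In scWAT the log2(FPKM + 1) difference between KO and WT was -0.10 ± 0.15 (SE; 95% interval -0.47 to 0.27; limma adjusted p = 0.788). Its closest relative in the files, Mecom, had means of 0.733 to 1.27 FPKM over the 4 groups and did not pass the test in any comparison in which it was tested.

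Dio2 encodes type 2 deiodinase, which converts thyroxine to the active hormone T3 inside the cell. The gene (ENSMUSG00000007682) lies on the minus strand of chromosome 12 from 90724552 to 90738438 (GRCm38). The promoter stretch given for it (chr12:90739039-90739288) precedes a RefSeq start that lies upstream of these bounds. Its levels were low throughout, at 0.359, 0.391 and 0.301 FPKM in WT epWAT and 0.353, 0.239 and 0.561 FPKM in KO epWAT. In WT scWAT the values were 0.499, 0.582 and 0.338 FPKM, and in KO scWAT 0.204, 0.0101 and 0.561 FPKM. KO scWAT was the most scattered group, from 1 read in C34 to 57 reads in C695, and its range enclosed all of the WT scWAT values but that of C85. Group means of 0.384 ± 0.164 (KO epWAT), 0.351 ± 0.0456 (WT epWAT), 0.259 ± 0.279 (KO scWAT) and 0.473 ± 0.124 FPKM (WT scWAT; SD, n = 3) did not differ beyond their spread, with two-sided exact permutation p = 0.9 for genotype in epWAT and p = 0.3 in scWAT. The read ratio of KO to WT in scWAT was 0.552 (exact 95% interval 0.414 to 0.732, 78 reads against 144), an interval that leaves out the differences between mice. With the mice as replicates, limma-voom gave a log2 difference of -1.93 ± 1.04 (SE; adjusted p = 0.498). KO scWAT C34, the library with 1 Dio2 read, was also the one with the highest summed muscle (276 FPKM) and preadipocyte markers (512 FPKM), and their part in its value was not tested.

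Cidea encodes a lipid droplet protein that promotes droplet growth and is a long-used marker of brown and beige adipocytes. The gene (ENSMUSG00000024526) lies on the plus strand of chromosome 18 from 67343604 to 67367785 (GRCm38). WT epWAT had 1.41, 1.91 and 1.65 FPKM in C75, C85 and C99, and KO epWAT had 1.97, 1.49 and 6.24 FPKM in C7, C34 and C695. WT scWAT had 7.06, 10.2 and 14.4 FPKM and KO scWAT 14.5, 9.18 and 22.1 FPKM. Mouse C695 had the highest value in both depots, and the KO and WT ranges overlapped in both depots. Means were 3.23 ± 2.61 in KO and 1.65 ± 0.250 in WT epWAT, and 15.3 ± 6.50 in KO and 10.6 ± 3.70 in WT scWAT (FPKM; SD, n = 3; two-sided exact permutation p = 0.4 in each depot). The log2(FPKM + 1) differences between KO and WT were 0.51 ± 0.39 in epWAT (SE; 95% interval -0.44 to 1.46; limma adjusted p = 0.414) and 0.46 ± 0.35 in scWAT (-0.39 to 1.32; adjusted p = 0.563). Without KO epWAT C695 the epWAT difference was 0.04, and without KO scWAT C695 the scWAT difference was 0.17. KO scWAT C695 was the library with 219 FPKM of lymphocyte markers, and KO epWAT C695 had the highest summed adipocyte markers, 12481 FPKM, and 8.25 FPKM of epididymis markers; the part of these in the Cidea values was not tested.

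Elovl3 encodes an elongase of very long chain fatty acids that is strongly induced in brown fat by cold. The gene (ENSMUSG00000038754) lies on the plus strand of chromosome 19 from 46131897 to 46135694 (GRCm38). In epWAT the WT mice had 0.906, 1.41 and 0.660 FPKM and the KO mice C7, C34 and C695 had 1.82, 0.387 and 0.0446 FPKM. In scWAT the WT mice had 0.579, 1.24 and 0.978 FPKM and the KO mice 0.119, 0 and 0 FPKM. The KO scWAT libraries were thus below all WT scWAT libraries, while the KO epWAT libraries ran from above the highest to below the lowest WT value. Means were 0.750 ± 0.942 and 0.992 ± 0.382 FPKM in KO and WT epWAT (SD, n = 3; two-sided exact permutation p = 0.7), and 0.0398 ± 0.0689 and 0.933 ± 0.334 FPKM in KO and WT scWAT (p = 0.1, the smallest that 3 against 3 allows in the exact test). In reads, KO scWAT had 3 and WT scWAT 74, a ratio of 0.0413 (exact 95% interval 0.00833 to 0.126), whereas 56 KO and 79 WT reads in epWAT gave 0.777 (0.542 to 1.11). A count of 3 reads in a library equalled 0.115 to 0.119 FPKM in KO scWAT, so the 2 libraries with 0 reads lay below that.

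Because Elovl3 was below 1 FPKM in most scWAT libraries it did not enter the scWAT comparison across genes. Without the filter its log2(FPKM + 1) difference between KO and WT scWAT was -0.88 ± 0.14 (SE; limma adjusted p = 0.156), and limma-voom on reads gave -4.63 ± 0.98 (95% interval -6.95 to -2.31; adjusted p = 0.153). Neither passed 0.05 after adjustment over all genes tested, although the unadjusted p of the read-based fit was 0.00219. A difference without overlap in this direction was found in 8.56% of detected genes in scWAT. The highest Elovl3 value of all, 1.82 FPKM, was in KO epWAT C7, the library with epididymal RNA; the other KO epWAT libraries were at 0.387 and 0.0446 FPKM, below all 3 WT epWAT values. The difference of KO effects, scWAT minus epWAT, was -0.58 ± 0.45 (SE; limma adjusted p = 0.444) on the log2(FPKM + 1) scale and -3.30 ± 1.63 on reads (limma-voom adjusted p = 0.336, unadjusted 0.0674), so a difference between depots in the KO effect was not shown.

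Kcnk3 encodes TASK-1, a two-pore potassium channel of the plasma membrane that is enriched in brown and beige adipocytes and that in mice restrains adrenergic heat production. The gene (ENSMUSG00000049265) lies on the plus strand of chromosome 5 from 30588170 to 30625271 (GRCm38). WT epWAT had 11.4, 10.6 and 9.54 FPKM, and KO epWAT had 9.48, 5.37 and 9.10 FPKM in C7, C34 and C695. WT scWAT had 16.3, 13.0 and 13.3 FPKM and KO scWAT 11.6, 11.4 and 11.0 FPKM. Every KO library was below every WT library of its depot, though in epWAT the highest KO value (9.48) was close to the lowest WT value (9.54). The order of means was KO epWAT (7.98 ± 2.27 FPKM; SD, n = 3), WT epWAT (10.5 ± 0.925), KO scWAT (11.3 ± 0.309) and WT scWAT (14.2 ± 1.83), and WT epWAT and KO scWAT overlapped. The two-sided exact permutation test gave p = 0.1 in each depot. Of detected genes, 18% were lower in KO without overlap in epWAT, 8.56% in scWAT and 2.41% in both.

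The log2(FPKM + 1) difference of Kcnk3 between KO and WT was -0.39 ± 0.20 in epWAT (SE; 95% interval -0.88 to 0.10; limma adjusted p = 0.243) and -0.30 ± 0.10 in scWAT (-0.54 to -0.06; adjusted p = 0.208). Neither passed the test, and the epWAT difference was -0.16 without KO epWAT C34, the lowest library. In epWAT the median over all 12722 genes tested was itself -0.10, and it was 0.03 after upper-quartile and 0.02 after quantile scaling. Kcnk3 had a negative difference in both depots under every setting tried. Pericyte and smooth muscle markers, whose cells also express two-pore channels, summed to 172 to 232 FPKM in KO and 174 to 231 in WT epWAT, and to 157 to 271 and 244 to 311 FPKM in KO and WT scWAT, and both pairs of sums overlapped. Of the 8 single markers, 2 were higher and 1 lower in KO without overlap in epWAT, beside 7.84% and 18% of detected genes. In scWAT 2 were higher and 2 lower, beside 8.84% and 8.56%. The part of these markers in the Kcnk3 values was not tested.

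The knockout comparison gave no call among these genes in either depot. In epWAT the 2 genes that could be tested, Cidea and Kcnk3, were both above an adjusted p of 0.05, and 0% of the 12722 genes tested were called by limma, although 3795 had an unadjusted p under 0.05; limma-voom on reads also called 0. In scWAT 0 of 4 genes tested (Cidea, Ppargc1a, Prdm16 and Kcnk3) was called against 0.317% of 12614 genes, and 1 of them, Kcnk3, had an unadjusted p under 0.05 (limma). The difference of KO effects, scWAT minus epWAT, was called for 0 of 5 genes against 1.03% of 13487, with none at an unadjusted p under 0.05. Limma-voom on genes with at least 10 reads called 0 of 6 genes tested in epWAT, 0 of 7 in scWAT and 0 of 7 for the contrast. Leaving out KO epWAT C7 raised the calls over all genes in epWAT to 1781, and leaving out KO scWAT C695 raised those in scWAT to 142, but 0 of 2 and 0 of 4 of these genes tested were called.

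Macrophage and adipocyte markers moved with genotype in epWAT, where the values of the 7 genes were compared. Of 8 macrophage markers, 8 were lower in KO epWAT without overlap, and their sum was 392 to 1099 FPKM in KO and 1556 to 2257 FPKM in WT. Of 10 adipocyte markers, 8 were higher and 1 lower in KO epWAT without overlap, and their sum was 8752 to 12481 FPKM in KO and 6712 to 8596 in WT. In scWAT the adipocyte sum was lower in KO, at 8312 to 9853 against 10229 to 11605 FPKM, with 2 of 10 markers lower without overlap, while the macrophage sums overlapped. None of these markers was at 0 in any library. Of detected genes, 18% were lower and 7.84% higher in KO epWAT without overlap, and 8.56% were lower in KO scWAT. Ppargc1a was higher and Kcnk3 lower in KO in both depots, and the part of cell composition in these values was not tested.

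**Figure D2:**
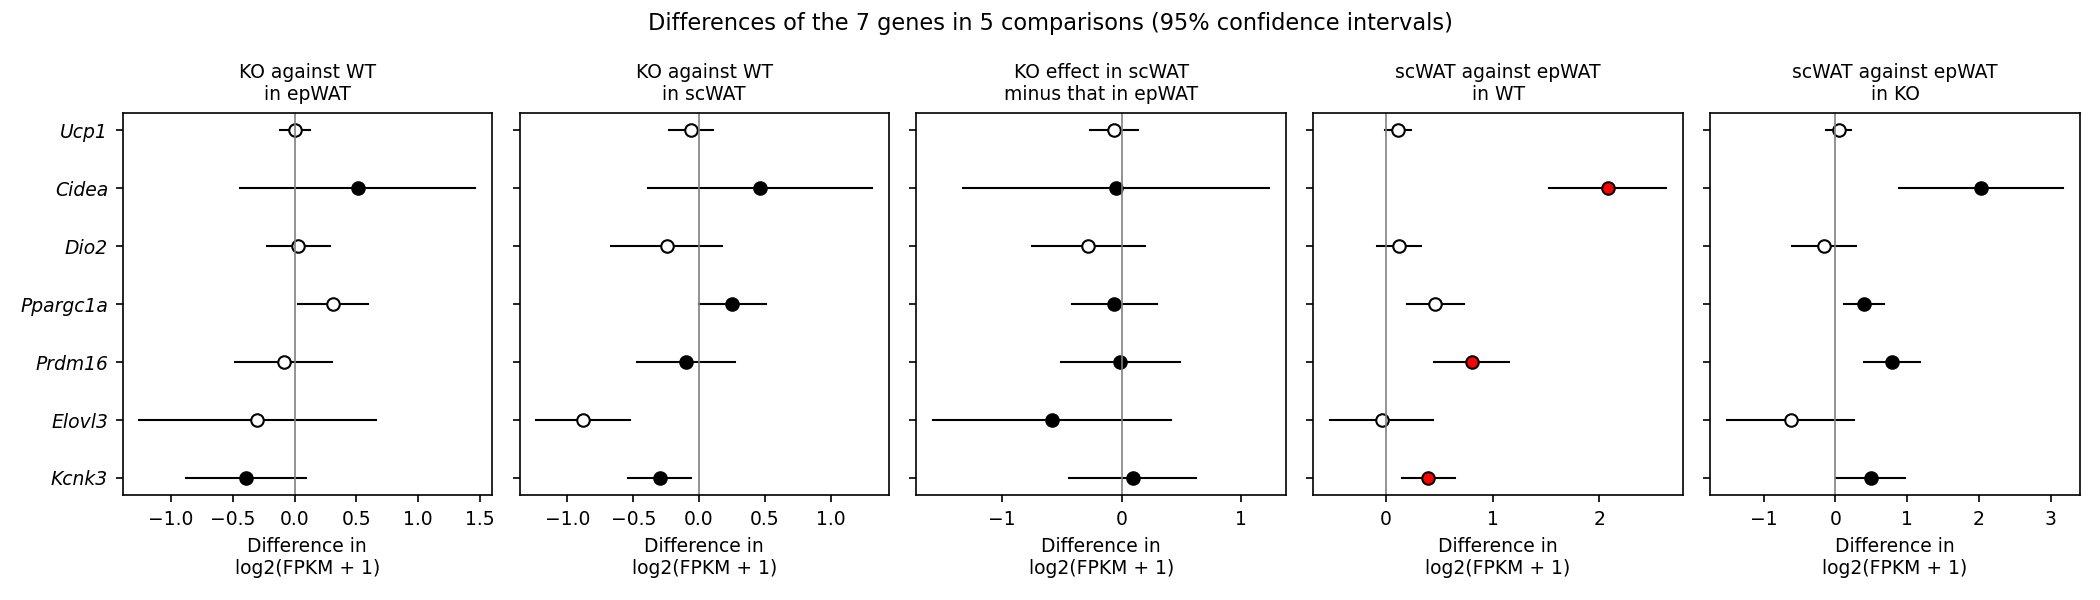
Log2(FPKM + 1) difference (x axis, a range of its own in each panel) of the 7 genes in 5 comparisons, with 95% confidence intervals from limma. Filled circles passed the filter, open circles are from the fit without a filter, and red marks an adjusted p under 0.05, reached by Cidea, Prdm16 and Kcnk3 for scWAT against epWAT in WT.

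Between the depots, unlike between the genotypes, some of these genes passed the test. In WT mice Cidea, Prdm16 and Kcnk3 were higher in scWAT than in epWAT. The other genes did not pass the filter there, and Prdm16 passed it through its scWAT values, so their number is no measure of the whole set. Cidea, the droplet protein, rose by 2.08 ± 0.23 on the log2(FPKM + 1) scale (SE; 95% interval 1.53 to 2.63; limma adjusted p = 0.00431). Prdm16, the fate coregulator, rose by 0.80 ± 0.15 (0.45 to 1.16; adjusted p = 0.0136), and Kcnk3, the channel, by 0.40 ± 0.11 (0.15 to 0.65; adjusted p = 0.0392). Over all 12760 genes tested in WT, 22.4% were called, 7.49% higher and 14.9% lower in scWAT. The Kcnk3 call did not hold when any 1 of the 6 WT libraries was left out (adjusted p = 0.0560 to 0.108), and that of Prdm16 did not hold without WT scWAT C99 (adjusted p = 0.0547).

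Ppargc1a did not enter that fit, as only 2 of the 6 WT libraries, both scWAT, reached 1 FPKM. All 3 of its WT scWAT values lay above its WT epWAT values. Without the filter its difference between the WT depots was 0.46 with an adjusted p of 0.0631, and limma-voom on reads gave 1.15 ± 0.23 (SE; adjusted p = 0.0150). In KO mice the differences were of the same sign and about as large as in WT, at 2.03 ± 0.47 for Cidea, 0.79 ± 0.16 for Prdm16, 0.49 ± 0.20 for Kcnk3 and 0.40 ± 0.12 for Ppargc1a. There 0 of 4 genes was called, with limma adjusted p of 0.142, 0.106, 0.333 and 0.216, although all 4 had an unadjusted p under 0.05 and limma-voom also called 0. Of 12623 genes tested in KO, 0.713% were called, 0.285% higher and 0.428% lower in scWAT. The depot differences of WT and KO were not shown to differ, as the test of that contrast gave -0.05 ± 0.58 for Cidea (adjusted p = 0.969), -0.01 ± 0.22 for Prdm16 (adjusted p = 0.984), 0.09 ± 0.24 for Kcnk3 (adjusted p = 0.845) and -0.06 ± 0.16 for Ppargc1a (adjusted p = 0.847).

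Read within each mouse, the depot pattern was the same in all 6 animals for these 4 genes. The scWAT to epWAT ratio of FPKM ran from 3.55 in C695 to 8.77 in C99 for Cidea, from 2.06 in C7 to 3.91 in C99 for Prdm16, from 1.46 in C34 to 2.87 in C99 for Ppargc1a and from 1.21 in C695 to 2.12 in C34 for Kcnk3. Of detected genes, 5.48% were higher in scWAT in 6 of 6 mice. The other genes did not share the pattern. Elovl3 was lower in scWAT in 5 of 6 mice, with ratios of 0.638 in C75 and 0.882 in C85 but 1.48 in C99 among WT animals, and 0.0656, 0 and 0 in the KO animals. Dio2 was higher in scWAT in the 3 WT mice, by ratios of 1.12 to 1.49, and lower in 2 KO mice, by ratios of 0.0423 and 0.579, with the third KO mouse, C695, at 0.561 FPKM in both depots. Ucp1 was higher in 3 mice and lower in 2. The last values rest on few reads, and the contrast of the Dio2 depot ratios between genotypes had an adjusted p of 0.407 by limma-voom.

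**Figure D3:**
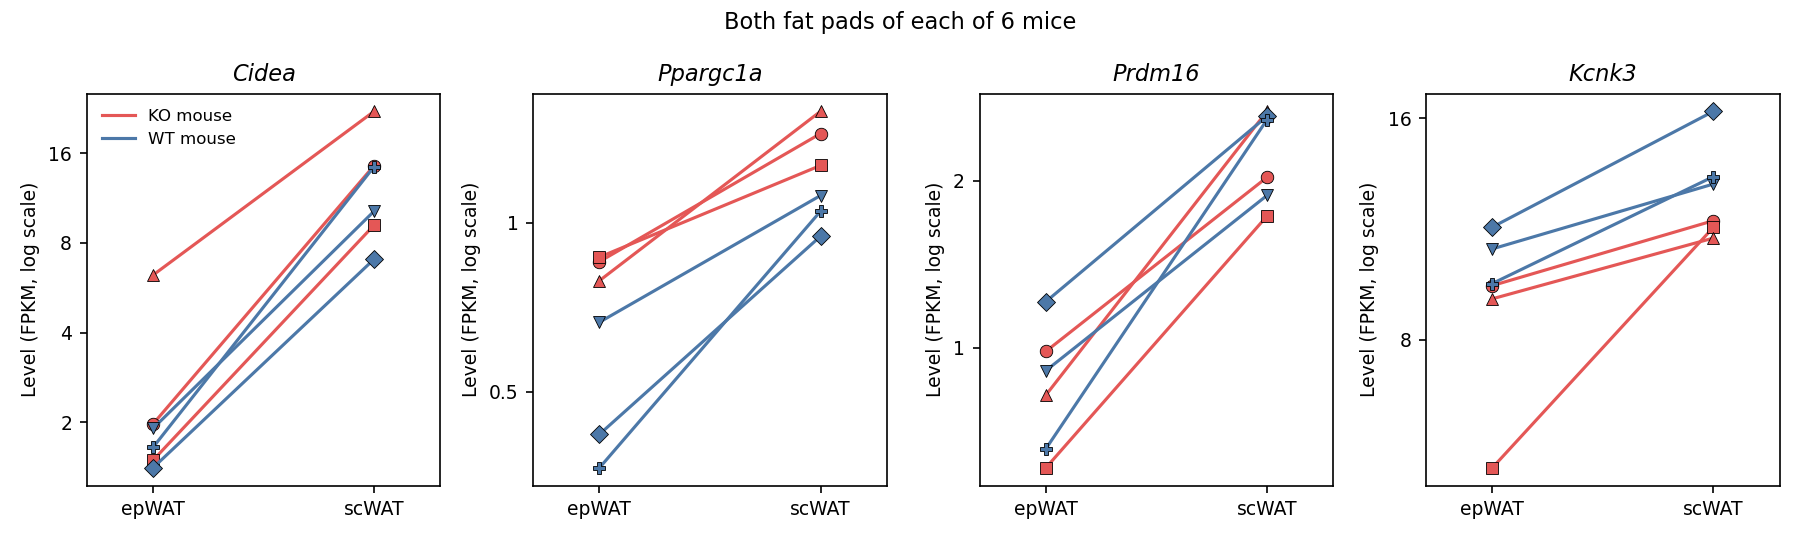
Level in FPKM (log y axis, a range of its own in each panel) in the epWAT and scWAT of each mouse, joined by a line, for Cidea, Ppargc1a, Prdm16 and Kcnk3, with KO mice in red and WT mice in blue and 1 symbol shape per mouse. All 6 lines slope upward in each panel, and within each depot the KO symbols lie above the WT symbols for Ppargc1a and below them for Kcnk3.

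Cell type markers also differed between the depots. In WT, 8 of 8 macrophage markers were lower in scWAT without overlap (537 to 644 against 1556 to 2257 FPKM summed), 7 of 10 adipocyte markers were higher (10229 to 11605 against 6712 to 8596 FPKM) and 3 of 6 preadipocyte markers were higher (170 to 211 against 111 to 123 FPKM). Also higher in WT scWAT without overlap were 3 of 8 skeletal muscle markers (30.4 to 149 against 7.91 to 27.1 FPKM summed) and 4 of 8 pericyte and smooth muscle markers (244 to 311 against 174 to 231 FPKM). In KO, 0 of 8 macrophage markers, 0 of 8 muscle markers, 1 of 8 pericyte markers (higher), 1 of 10 adipocyte markers (lower in scWAT) and 3 of 6 preadipocyte markers (higher) differed without overlap. The share of all genes without overlap between the depots was not counted, so these marker counts have no background beside them. The higher scWAT levels of Cidea, Prdm16, Ppargc1a and Kcnk3 in 6 of 6 mice thus stood beside marker differences of unlike size in the 2 genotypes. The part of the marker differences in those levels was not tested.

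A wider set of 115 other genes of the thermogenic programme and of the families of these genes was read the same way, sorted into lists by role. In no list did a gene pass the test for KO against WT. In epWAT 0 of 78 tested was called, with 30 at an unadjusted p under 0.05 (limma) and a smallest adjusted p of 0.0553, and in scWAT 0 of 81, with 16 unadjusted; limma-voom also called 0 in each. The contrast of the KO effects between depots called 0 of 84, with 27 unadjusted, and limma-voom again called 0. Their median log2 difference was -0.06 in epWAT, against -0.10 for all genes, and 0.04 in scWAT, against 0.01. Between the WT depots 19 of 82 were called higher and 9 lower in scWAT, beside 7.49% and 14.9% of all genes tested, with a median of 0.05 against -0.04 for all genes. Between the KO depots 4 of 82 were called higher and 1 lower, beside 0.285% and 0.428% of all genes, with a median of 0.15 against 0.06. Hoxc10 and Lhx8 passed the filter through their scWAT values, and Gdf15 in WT through its epWAT values. The depot counts are therefore no measure of the whole set.

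Among metabolic effectors of brown fat, 6 of 15 tested genes were higher in scWAT than epWAT in WT and none lower, beside 7.49% and 14.9% of all genes, with a list median of 0.27. They included Plin5, a droplet coat protein that links droplets to mitochondria (6.49 ± 0.874 FPKM in epWAT and 13.3 ± 1.56 in scWAT; SD, n = 3; limma adjusted p = 0.00510), and Cox8b, a cytochrome c oxidase subunit of brown fat and muscle (17.4 ± 5.44 and 33.0 ± 8.53 FPKM; adjusted p = 0.0494). The others were the amino acid transporter gene Slc36a2 (60.4 ± 4.33 and 86.3 ± 6.54 FPKM), the acyl-CoA thioesterase gene Acot2 (4.90 ± 0.593 and 8.92 ± 1.54), the proton channel gene Otop1 (5.06 ± 0.668 and 7.89 ± 1.16) and Aifm2 (67.1 ± 6.02 and 81.2 ± 1.38). Cox8b was the single call of this list between the KO depots, at 13.7 ± 4.51 FPKM in epWAT and 55.5 ± 3.39 in scWAT (adjusted p = 0.0155). Between genotypes, Cox8b in scWAT was 24.2 to 41.2 FPKM in WT and 51.7 to 58.4 in KO (adjusted p = 0.134). Otop1 in epWAT was 4.57 to 5.82 FPKM in WT and 0.735 to 1.74 in KO (adjusted p = 0.0553). Neither pair of ranges overlapped, and neither difference passed. Other effectors were lower in KO scWAT without overlap, among them Slc36a2 at 57.9 to 64.4 FPKM in KO and 78.9 to 91.5 in WT (adjusted p = 0.0867) and Plin5 at 5.54 to 9.11 and 12.2 to 15.1 FPKM (adjusted p = 0.134). Otop1, Gk and Aifm2 also lay lower there without overlap and Pdk4 higher, and none of these passed. In epWAT Acot2 lay higher in KO without overlap, at 6.85 to 7.83 FPKM against 4.39 to 5.55 in WT (adjusted p = 0.0667). Acot11, which was not tested, lay lower, at 0.154 to 0.479 against 0.913 to 1.40 FPKM. Of detected genes, 8.56% were lower and 8.84% higher in KO scWAT without overlap, and 18% and 7.84% in KO epWAT.

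Markers of beige adipocytes were mostly low, while 5 of 8 markers of classical brown adipocytes were at 1 FPKM or above in every library. Of 6 beige markers, 2 were tested between the WT depots and 0 was called (limma; Sp100 at an adjusted p of 0.314). Tmem26, a surface marker of beige cells, was at 0.129 to 0.238 FPKM in WT scWAT and 0.488 to 1.71 in KO scWAT, without overlap, and overlapped in epWAT. Tbx1 was at 0 to 0.0635 FPKM in WT epWAT and 0.130 to 1.09 in KO epWAT, again without overlap, and overlapped in scWAT. Of detected genes, 8.84% were higher in KO without overlap in scWAT and 7.84% in epWAT. Tmem26 was tested in no comparison and Tbx1 not in epWAT. Sp100 also lay higher in KO scWAT without overlap, whereas Tnfrsf9, Cited1 and Cd40 overlapped in both depots. The 2 beige markers tested for genotype in epWAT, Sp100 (log2 difference -0.51) and Cd40 (-0.27), were both lower in KO. In scWAT the 3 tested, Sp100 (0.51), Cd40 (0.51) and Tbx1 (0.04), were higher, and none was called in either depot. Of 8 classical brown markers, Zic1, a transcription factor gene of interscapular brown fat, was at 0.04 FPKM or less in every library. Oplah and Ebf3 were higher in WT scWAT than in WT epWAT, as was Lhx8 (0.467 ± 0.676 FPKM in epWAT and 3.88 ± 1.26 in scWAT; limma adjusted p = 0.0135). Hspb7 went the other way, at 25.5 ± 5.55 FPKM in WT epWAT and 5.84 ± 2.66 in WT scWAT (adjusted p = 0.00889), and it and Lhx8 were also called between the KO depots, in the same directions. Of 6 tested, 3 were thus called higher and 1 lower in WT scWAT, beside 7.49% and 14.9% of all genes. In KO 1 of 6 was called higher and 1 lower, beside 0.285% and 0.428%. Lhx8 passed the filter through its scWAT values in both genotypes, so these counts are no measure of the list. Between genotypes, Lhx8 lay lower in KO scWAT without overlap, at 1.51 to 1.64 against 2.95 to 5.32 FPKM in WT (limma adjusted p = 0.105). Epsti1 lay lower in KO epWAT and higher in KO scWAT without overlap. Oplah and Hspb7 lay higher in KO epWAT and Mpzl2, which was not tested, in KO scWAT, also without overlap. None of these was called. The shares of detected genes lower in KO without overlap were 18% in epWAT and 8.56% in scWAT.

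Regulators around Prdm16 and Ppargc1a differed between depots in few cases. Of 17 activators tested, Ppara, a nuclear receptor gene of fatty acid oxidation, was called higher and Zfp516 lower in WT scWAT. The nuclear receptor gene Pparg, a main driver of fat cell formation, was at 72.0 ± 10.5 FPKM in WT epWAT and 89.0 ± 14.8 in WT scWAT (limma adjusted p = 0.206). Of 9 genes known to hold the brown programme back, 3 were higher in WT scWAT and none lower, beside the same 7.49% and 14.9% of all genes. They were Zfp423, Twist1 (13.8 ± 4.17 FPKM in epWAT and 29.0 ± 3.98 in scWAT; adjusted p = 0.0163) and Hoxc10, a positional homeobox gene (0.0592 ± 0.0520 and 8.72 ± 2.19 FPKM; adjusted p = 0.00155). Hoxc10 and Twist1 were called in KO as well. In both genotypes Hoxc10 passed the filter through its scWAT values alone and could only be tested as higher. The counts are therefore no measure of this list.

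Upstream input was read from receptor and hormone genes. Adrb3, the beta3-adrenergic receptor of adipocytes, was at 49.2 to 77.5 FPKM in WT epWAT and 89.7 to 171 FPKM in KO epWAT, and at 36.0 to 46.5 FPKM in WT scWAT and 89.4 to 169 FPKM in KO scWAT. KO lay above WT without overlap in both depots, but neither difference passed (log2 1.19 ± 0.29, adjusted p = 0.0723, and 1.57 ± 0.24, adjusted p = 0.0716; SE, limma). Among detected genes, KO was higher without overlap in 7.84% in epWAT, 8.84% in scWAT and 1.1% in both depots. Th and Dbh, the enzymes of noradrenaline synthesis in nerves, were at 0.179 FPKM or less. Of 6 thyroid hormone genes tested, the receptor genes Thra and Thrb were higher in WT scWAT, at 18.5 ± 3.13 against 12.3 ± 0.610 FPKM and 5.05 ± 0.213 against 3.67 ± 0.345 FPKM. These 2 higher and 0 lower calls stood beside 7.49% and 14.9% of all genes tested. Thrsp, a lipogenic gene that responds to thyroid hormone, was at 169 ± 71.3 FPKM in WT and 419 ± 183 in KO epWAT (SD, n = 3; limma adjusted p = 0.109).

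Of 7 secreted factors of brown fat tested between the WT depots, 2 were called higher and 2 lower in scWAT, beside 7.49% and 14.9% of all genes. Nrg4 (6.92 ± 2.02 FPKM in epWAT and 14.8 ± 2.04 in scWAT; limma adjusted p = 0.0177), which encodes a growth factor of thermogenic fat, and Vegfa, which encodes the angiogenic factor, were higher in scWAT. Metrnl (58.6 ± 11.2 and 25.1 ± 4.17 FPKM; adjusted p = 0.00630), a cytokine gene that macrophages also express, and Gdf15 were lower in scWAT. Gdf15 passed the filter there through its epWAT values alone. In KO the means of Metrnl were 20.5 ± 8.81 FPKM in epWAT and 27.2 ± 17.2 in scWAT and were not called (adjusted p = 0.888).

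**Figure D4:**
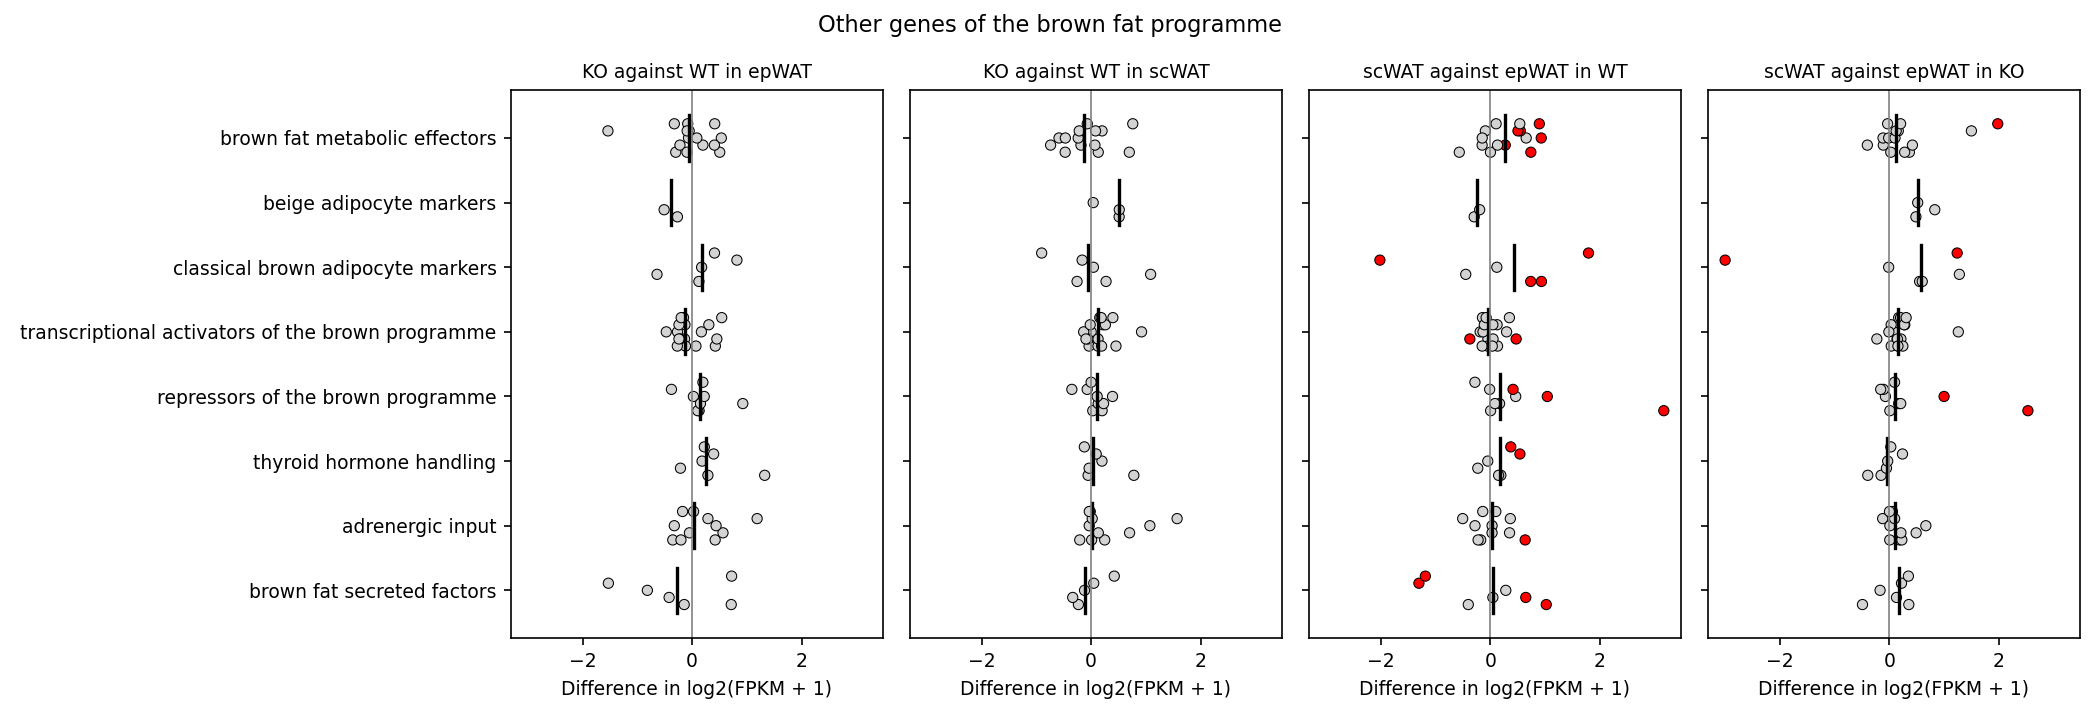
Log2(FPKM + 1) differences (x axes on a common range) of the other genes of 8 lists of the brown fat programme in 4 comparisons, 1 circle per tested gene, with the list median as a black bar and genes with an adjusted p under 0.05 in red. There is no red circle for KO against WT in either depot, and the WT depot panel holds the most.

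The families of the 7 genes showed which relatives fill these pads. Cidec, the droplet protein of white adipocytes, was at 1215 to 2798 FPKM and so far above Cidea per length, and Cideb was at 0.243 FPKM or less. Cidec did not differ between the WT depots by the test (limma adjusted p = 0.272), where Cidea rose. Among uncoupling proteins, Ucp2, which macrophages also express, was at 107 ± 17.8 FPKM in WT epWAT and 34.7 ± 3.03 in WT scWAT (SD, n = 3; adjusted p = 0.00312), and at 43.2 ± 19.8 FPKM in KO epWAT, where its difference from WT was not called (adjusted p = 0.0709). Among elongases, Elovl1, Elovl5 and Elovl6 exceeded 4 FPKM in every library, and Elovl1 and Elovl5 were lower in WT scWAT than in WT epWAT, while Elovl2, Elovl4 and Elovl7 were below 1 FPKM in all 12 libraries. Among 12 two-pore potassium channel genes in the files, Kcnk3 had the highest mean. Kcnk2 rose with it in WT scWAT (2.13 ± 0.172 and 3.74 ± 0.522 FPKM; adjusted p = 0.0112), and Kcnk6 and Kcnk13 were lower there (adjusted p = 0.00289 and 0.00431). Of 3 elongases tested between the WT depots, 0 were called higher and 2 lower in scWAT. Of 4 channels tested, 2 were called higher and 2 lower, beside 7.49% and 14.9% of all genes.

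**Figure D5:**
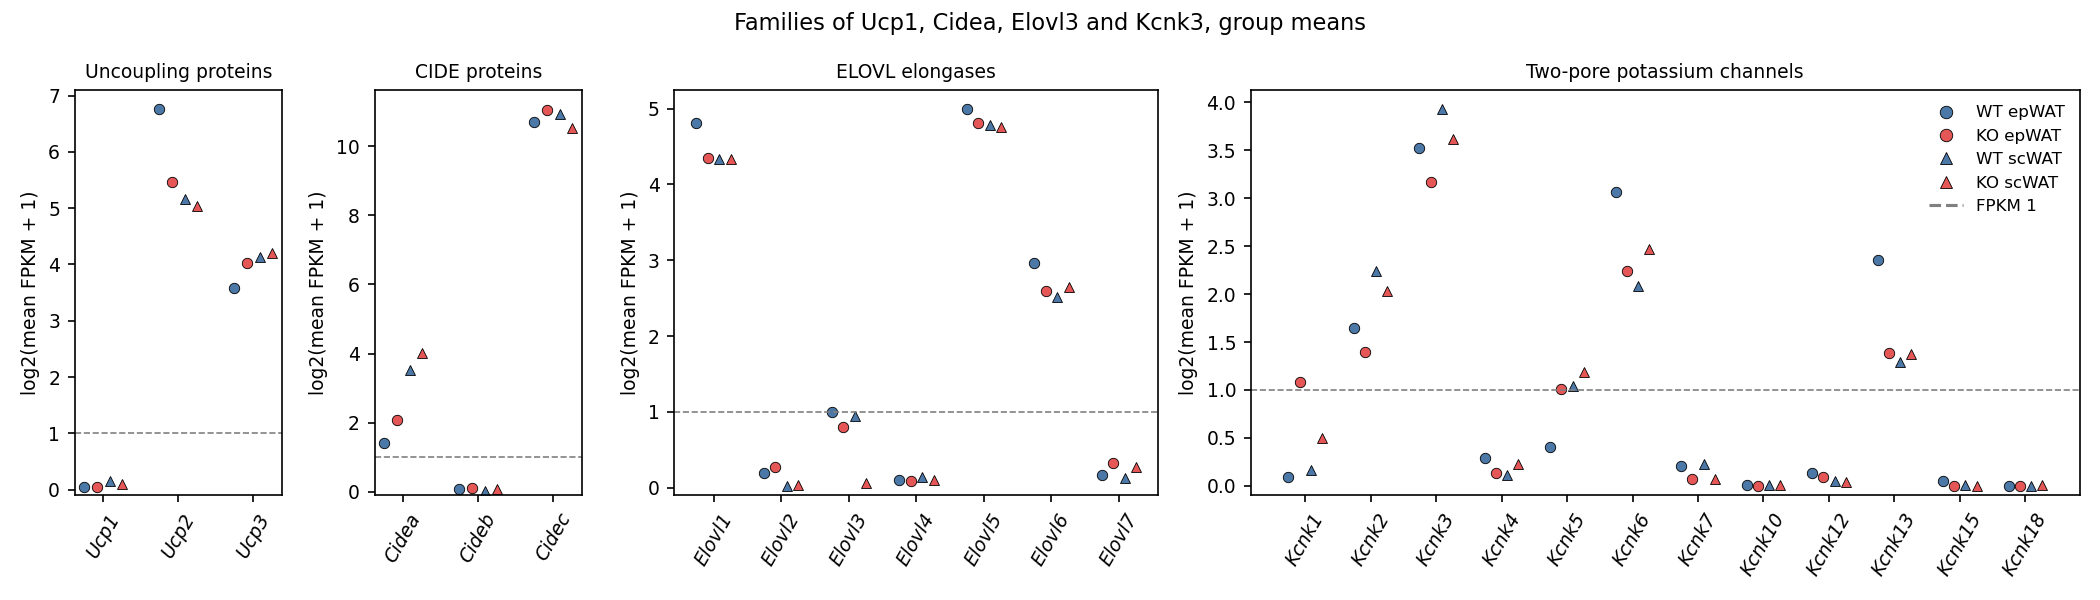
Group means as log2(mean FPKM + 1) on the y axis for the members of 4 gene families, with WT in blue, KO in red, circles for epWAT, triangles for scWAT and a dashed line at 1 FPKM. Ucp1 lies at the bottom of its panel beside Ucp2 and Ucp3, Cidec lies far above Cidea, and Kcnk3 has the highest means among the two-pore potassium channels.

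The genes whose levels over the 12 libraries were most like each of the 7 were ranked by Pearson r of log2(FPKM + 1) among 13487 genes; these values describe libraries that share depots, mice and depth, and Ucp1 and Dio2 were too low to rank. Cidea was most like Grb14 (r = 0.96), an adaptor of the insulin receptor, Dnajc15 (r = 0.96) and Ndrg3 (r = 0.96). Ppargc1a was most like Kat2b (r = 0.96), an acetyltransferase gene, Oplah (r = 0.94) and Il17rb (r = 0.94). Prdm16 was most like the channel gene Kcnk2 (r = 0.93), H2-M9 (r = 0.93) and the homeobox gene Hoxa10 (r = 0.93). Elovl3 was most like Mfap3l (r = 0.92), Tnfrsf10b (r = 0.91) and Cyb5r2 (r = 0.91), and Kcnk3 was most like B2m (r = 0.91), Kcnk2 (r = 0.89) and Rasl12 (r = 0.88). With the 4 group means removed, r was 0.74 to 0.83 for the genes named with Cidea, 0.34 to 0.65 for Ppargc1a, 0.54 to 0.74 for Prdm16, 0.80 to 0.89 for Elovl3 and 0.68 to 0.75 for Kcnk3. Among the 7 themselves, r over the 12 libraries was 0.86 between Cidea and Ppargc1a, 0.85 between Cidea and Prdm16 and 0.77 between Prdm16 and Kcnk3, and -0.49 between Cidea and Elovl3. With the group means removed these were 0.28, 0.32, 0.55 and -0.28.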

How the data were processed

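RNA from 12 fat samples (Trizol extraction, Illumina libraries, per the labels' protocols) was deposited as FPKM by the authors, 1 value per Ensembl gene; the unit was inferred from the values. The submitters' processing notes name mm9, and the aligner, counting program, annotation and strand setting are not given in the sources used here. Values times GENCODE M21 (GRCm38) exon length times 1 depth per library gave whole reads, within 0.01, in all 12 libraries for 92.4% of genes, so coordinates are given for GRCm38 only. Of 32622 identifiers, 32553 matched M21 and 69 did not. For Cidea and Elovl3 the M21 lengths did not give whole reads, and lengths of 1164 and 1494 bases, which do, were used for their read counts. For Elovl3 that is the length with the fewest reads. Depths were 15011093 to 18311564 reads. Intervals on reads cover counting error only.

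Tests covered genes that reached FPKM 1 in 3 or more libraries of a comparison, and were made with limma-trend on log2(FPKM + 1), which understates changes of low genes, with Benjamini-Hochberg adjustment over all genes tested and a threshold of 0.05. KO against WT in each depot and scWAT against epWAT in each genotype used their own 6 libraries, and the contrast of KO effects used 12. Single values were tested with two-sided exact permutation tests. Because the values were FPKM, the count test planned for raw counts was not the main test. Alternatives were no filter, a filter at FPKM 5, pseudocounts of 0.1 or 5, upper-quartile and quantile scaling, limma-voom on recovered reads, 1 variance estimate for all 12 libraries, the mouse as a block, and leaving out each library or both KO epWAT C7 and KO scWAT C695. Limma-voom on genes with at least 10 reads was added after seeing the data, and read-based fits quoted in the results are of this kind.

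The 7 genes, all lists and tests were chosen with earlier results of these data known. Besides the 7, named genes were drawn, per list, from up to 4 genes called in a comparison and the 2 highest by mean FPKM, and from the 3 most like each gene. Not all genes that met this rule are named in the text. Some others (Tmem26, Tbx1, Tnfrsf9, Cited1, Zic1, Epsti1, Mpzl2, Th, Dbh, Cideb, Elovl2, Elovl4, Elovl6, Elovl7, Gk, Pdk4, Acot11, and Aifm2 and Cox8b in WT) were named after their values were seen. Kcnk9 and Kcnk16 and 2 epididymis markers were not matched in the files and were not used. The values of 1 further listed gene are not reported here.

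The same mouse codes label both depots and were taken to mean the same animal, on which the pairing rests. After removal of group means, r between a mouse's own depots was -0.03 (C7), 0.17 (C34), 0.11 (C695), 0.36 (C75), 0.32 (C85) and 0.26 (C99), against at most 0.06 between different mice of a genotype. The procedure was also run on simulated data. Changes were planted there only in genes above 1 FPKM in all 12 libraries, so the detection of changes in lower genes was not simulated. The tools were limma 3.58.1 with statmod 1.5.0 (R 4.3.3), and numpy 2.4.6, pandas 2.3.3, matplotlib 3.10.9 and scipy 1.17.1 under Python 3.11.15.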

Additional observations from a re-analysis of the deposited data

How the results depend on the processing

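Of the 7 genes, those tested (from 1 to 7 by setting) gave 0 calls for KO against WT in epWAT, in scWAT and for the contrast of KO effects under every setting tried. Between the WT depots the count of 3 was 4 with limma-voom on genes with at least 10 reads (an alternative chosen after seeing the data), 2 without a filter (Cidea and Prdm16), 2 with FPKM of at least 5, which Prdm16 did not pass, and 1 to 2 when 1 library was left out, the 1 being Cidea without WT scWAT C99. Cidea was called under all 17 settings. Kcnk3 was called under 9 of 17 and was lost without a filter (adjusted p = 0.0828, limma), with the spread shared over 12 libraries (adjusted p = 0.149), where Ppargc1a was called in its place, and without any 1 library. Between the KO depots the count of 0 became 2 (Cidea and Prdm16) with the spread shared over 12 libraries.

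With the mouse as a replicate block, 3 of 3 genes tested were called between the WT depots, 0 of 4 between the KO depots, 0 of 5 for the contrast and 0 of 5 for KO against WT in each depot, where mice are nested in genotype and the mouse entered as a random effect. The block changed no call among them.

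Signs were reversed only for the contrast of KO effects, which was called for none of the genes: Cidea (-0.05) was 0.10 with a pseudocount of 5 and -0.35 to 0.42 with 1 library left out; Ppargc1a (-0.06) was 4.78e-05 with a pseudocount of 5; Prdm16 (-0.01) was 0.028 with a pseudocount of 0.1, 0.049 and 0.048 with the limma-voom fits and -0.13 to 0.093 with 1 library left out; Kcnk3 (0.09) was -0.10 with upper-quartile scaling, -0.055 with quantile scaling and -0.14 to 0.22 with 1 library left out. The cause was not tested. Of 310 recomputed values of single genes, 281 kept direction and side of the threshold.

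Counts over all genes moved more. In epWAT 0 became 39 with FPKM of at least 5, 29 with a pseudocount of 5, 26 and 108 after upper-quartile and quantile scaling, 1765 with a shared spread, 1759 with the mouse as random effect and 1781 without C7. In scWAT 40 became 11 without a filter, 72 with FPKM of at least 5, 23 with a pseudocount of 5, 62 and 24 after upper-quartile and quantile scaling, 18 with limma-voom on genes with at least 10 reads, 251 with a shared spread, 265 with the random effect and 0 to 142 with 1 library left out. The contrast went from 139 to 23 without a filter, 211 after quantile scaling, 2 with limma-voom on genes with at least 10 reads, 0 under the block, 1477 without both libraries and 0 to 928 with 1 left out. Between the WT depots 2852 became 1683 with a shared spread and 1272 to 2307 with 1 left out, and between the KO depots 90 became 44 without a filter, 55 with FPKM of at least 5, 57 with limma-voom on genes with at least 10 reads, 649 with a shared spread, 12 under the block, 6 without both libraries and 7 to 36 with 1 left out. At this depth Ucp1, with 22 reads in all, and Elovl3 in KO scWAT, with 3, cannot show small differences.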
